A study of Mus musculus with 4 samples.

Results

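The 44 collagen genes of the mouse, every symbol in the deposited feature lists made of Col, a chain type number, the letter a and a chain number, were followed through the cell types of the embryonic lung in Dnmt1 CKO and wild type mice. They are 44 of 55471 gene identifiers. By the usual grouping 11 are fibrillar, 6 form basement membranes, 9 are fibril-associated and 18 belong to other families. Whole E18.5 embryonic lungs had been digested with collagenase IV, dispase II and DNase I, and single cells were profiled in droplets by counting RNA molecules (UMIs) at their 3′ ends. The Dnmt1 CKO group (2 libraries) carries Tbx4-rtTA and Tet-O-Cre together with Dnmt1 in the form written D/D. In that system regulatory DNA of Tbx4 drives a doxycycline-dependent activator in the lung mesenchyme. The activator switches on Cre, and Cre deletes part of Dnmt1, the enzyme that copies DNA methylation to the new strand after replication. The wild type (WT) group (2 libraries) is labelled only as that, so whether it carries a driver allele is not known here. The labels do not say that each library is a separate animal, so every p-value below measures the spread between these 4 libraries, which may be technical.

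Collagens are built from 3 chains wound into a triple helix. Fibrillar collagens (types I, II, III, V, XI, XXIV and XXVII) make the cables that carry tension in airway walls and vessel sheaths. Type IV collagens make the sheet-like network under epithelium and endothelium. Fibril-associated collagens sit on the fibrils and tie them to other matrix, type VI makes beaded microfibrils around cells, and transmembrane collagens stay anchored in the cell that made them. In the late fetal lung most fibrillar collagen is made by fibroblasts, whereas the basement membrane of the future air sac is supplied by several cell types at once.

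The libraries held 49582593 and 54334468 UMIs in Dnmt1 CKO and 48213065 and 56760219 UMIs in WT. After filtering, 4323 and 5675 Dnmt1 CKO cells and 5111 and 4932 WT cells remained, and any pair of libraries shared between 4 and 10 cell barcodes. Cells were clustered without the collagen genes, and a cluster took the name of a cell type, written as "-like", from lists of marker genes that held no collagen. Summed over mesenchymal-like cells, Dnmt1 stood at 9.69 and 12.8 normalised counts (CPM, the share of the class's UMIs scaled to a common total) in Dnmt1 CKO, against 27.8 and 26.0 CPM in WT, a log2 fold change (Dnmt1 CKO over WT) of -1.27 (SE 0.22, adjusted p = 0.00616, edgeR). In mesothelial-like cells it stood at 9.60 and 18.3 CPM in Dnmt1 CKO, against 52.7 and 48.9 CPM in WT (log2 fold change -1.71, adjusted p = 0.0664). The log2 fold change of Dnmt1 lay between -0.03 and 0.01 in epithelial-like, endothelial-like and immune-like cells. A 3′ count does not see the deleted stretch unless the deletion also lowers the transcript, and the labels do not name the exons deleted.

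Collagen mRNA was most abundant in mesenchymal-like and mesothelial-like cells, and each cell type carried its own mixture of classes. All collagens together summed to 12485 and 12767 CPM in Dnmt1 CKO mesenchymal-like cells and to 13551 and 16385 CPM in WT ones. In mesothelial-like cells, the covering of the lung, they summed to 12741 and 10031 CPM in Dnmt1 CKO and to 18538 and 21340 CPM in WT. Endothelial-like cells held 4472 and 5212 CPM in Dnmt1 CKO and 4306 and 5618 CPM in WT. The class sums of the Dnmt1 CKO libraries lay below those of both WT libraries in mesenchymal-like, mesothelial-like and, as given below, epithelial-like cells. They overlapped the WT sums in endothelial-like and immune-like cells.

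The lowest sums were in epithelial-like cells, at 1638 and 2027 CPM in Dnmt1 CKO and 2252 and 2872 CPM in WT, and in immune-like cells, at 257 and 370 CPM in Dnmt1 CKO and 318 and 369 CPM in WT. Type IV chains made up 83.9% and 78.9% of the collagen UMIs of endothelial-like cells in Dnmt1 CKO, against 78.6% and 84.8% in WT. In epithelial-like cells they made up 68.2% and 66.6% in Dnmt1 CKO, against 69.5% and 73.2% in WT. So the vessel lining and the epithelium held mostly basement membrane chains and the mesenchyme mostly fibrillar ones. These levels are a description without a test, since the cell types were drawn from the same cells. UMIs are counted once per captured molecule and are not divided by transcript length, so a level is compared between cell types and genotypes more safely than between genes.

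**Figure D1:**
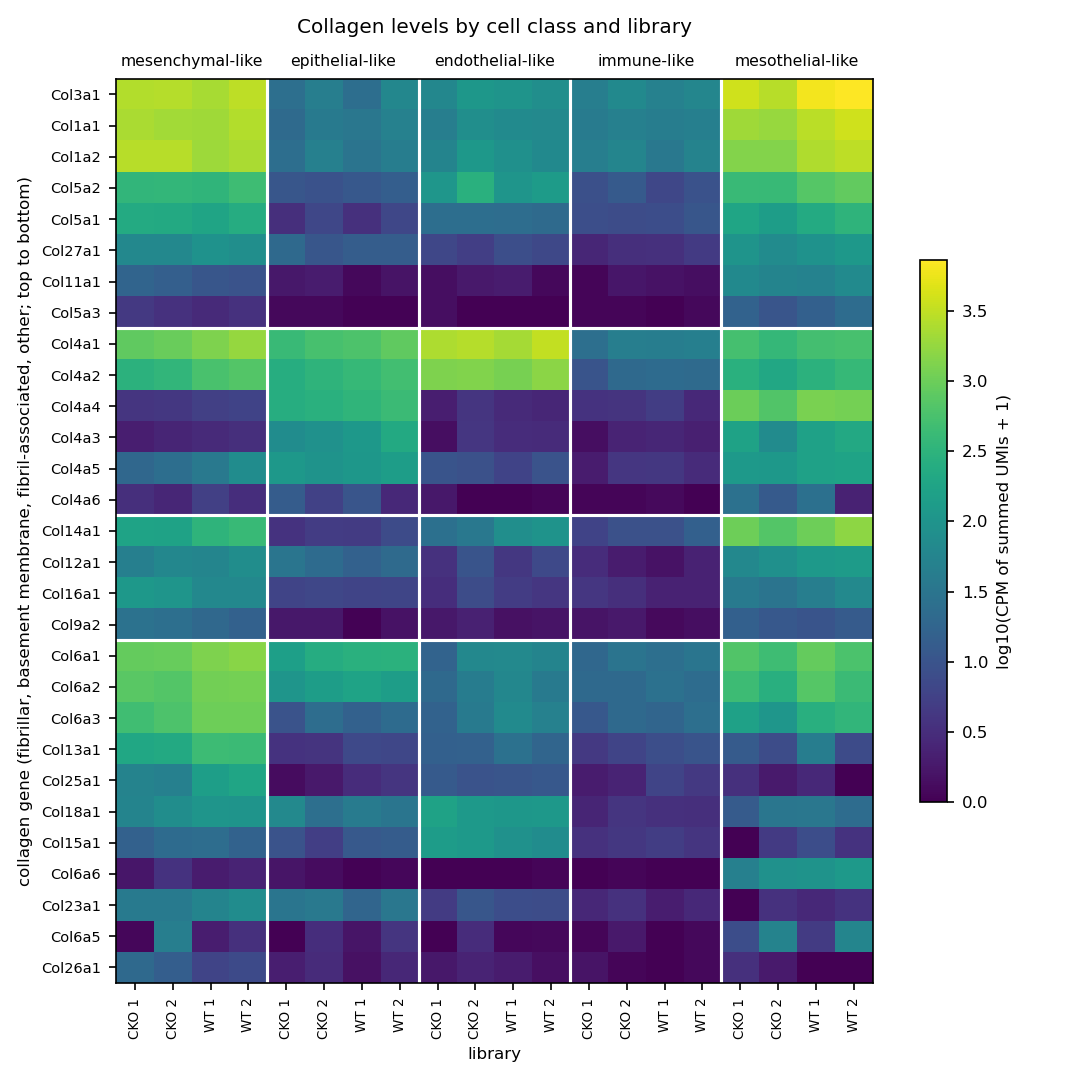
Heat map of collagen levels, as log10(CPM + 1) of summed UMIs, with genes down the page by collagen class and the 4 libraries of each broad cell class across it, Dnmt1 CKO left of WT. The type I and III chains are brightest in mesenchymal-like and mesothelial-like cells, Col4a1 and Col4a2 in endothelial-like cells, and immune-like cells are dark for most genes.

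In the mesenchyme, 40 of the 44 collagens had enough UMIs to test, and 11 differed between the genotypes at an adjusted p under 0.05 (edgeR quasi-likelihood F-test on UMIs summed per library, Benjamini-Hochberg over 16146 genes). The share of all tested genes called there was 13.2%, so differences between the genotypes were common in this cell type. Of the 11, 3 were higher in Dnmt1 CKO, where 7.2% of all genes were, and 8 were lower, where 5.98% were. The median log2 fold change was -0.41 over the 40 collagens and 0.00 over all genes tested. The per-library CPM of the groups did not overlap for 28 of the 44 genes, with 19 lower and 9 higher in Dnmt1 CKO. Of the 40 tested, 27 did not overlap, 19 lower and 8 higher, where 57.4% of all tested genes did not, 26.2% lower and 31.2% higher. In these sums fewer cells of a kind and less RNA per cell cannot be told apart.

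The mesenchymal-like class was made of different cells in the 2 genotypes. Clusters 1, 5 and 11 held 1889 and 1661 Dnmt1 CKO cells but 41 and 58 WT cells, which is 73.6% and 59.7% of the class in Dnmt1 CKO and 1.47% and 2.27% in WT. Matrix fibroblast-like cells, which are clusters 0 and 10, held 129 and 460 Dnmt1 CKO cells and 1875 and 1726 WT cells, or 5.03% and 16.5% of the class against 67.1% and 67.5%. Cluster 10 was 58.9% and 28.5% of them in Dnmt1 CKO and 12.4% and 18.6% in WT, so this subtype too was a different mixture in the 2 genotypes. Every comparison over the whole class therefore sets mainly clusters 1, 5 and 11 of Dnmt1 CKO beside mainly cluster 0 of WT. The summed level of 12 mesenchymal markers was 12366 and 14259 CPM in Dnmt1 CKO mesenchymal-like cells, against 19589 and 20421 CPM in WT ones. The 9 erythroid markers summed to 5778 and 2683 CPM in Dnmt1 CKO and 2754 and 1461 CPM in WT, highest in Dnmt1 CKO replicate 1 and overlapping between the genotypes. Pericyte markers summed to 650 and 863 CPM in Dnmt1 CKO and 1322 and 1267 CPM in WT, markers of dividing cells to 1134 and 900 CPM in Dnmt1 CKO and 662 and 538 CPM in WT, and Schwann or neural markers to 22.8 and 26.5 CPM in Dnmt1 CKO and 8.16 and 8.86 CPM in WT, and these 3 lists did not overlap. The 10 epithelial markers summed to 52.6 and 115 CPM in Dnmt1 CKO and to 63.7 and 48.4 CPM in WT, and the 10 endothelial markers to 89.6 and 116 CPM in Dnmt1 CKO and 89.1 and 87.7 CPM in WT. The 11 chondrocyte markers, 1 of them at 0 in every library, summed to 35.0 and 33.2 CPM in Dnmt1 CKO and 45.6 and 71.9 CPM in WT. The endothelial and chondrocyte sums did not overlap between the genotypes either, and the epithelial sums did. Immune markers summed to 38.4 and 47.2 CPM in Dnmt1 CKO and 27.9 and 28.4 CPM in WT. Mesothelial markers summed to 31.2 and 63.7 CPM in Dnmt1 CKO and 67.5 and 70.7 CPM in WT. The groups of both lists did not overlap. The part of any of the lists named here in the collagen differences was not tested.

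Of the 10 fibrillar collagens tested in mesenchymal-like cells edgeR called 0, with a median log2 fold change of 0.04. At an unadjusted p under 0.05 there were 3, where 28.1% of all genes were, and DESeq2 called 0. Col3a1, whose homotrimers make the fine fibres of distensible tissue, held 2643 and 2744 CPM in Dnmt1 CKO and 2250 and 2988 CPM in WT (log2 fold change 0.03, SE 0.23, adjusted p = 0.950). Col1a1, the α1 chain of type I, held 2379 and 2162 CPM in Dnmt1 CKO and 2056 and 2592 CPM in WT (log2 fold change -0.05, SE 0.22, adjusted p = 0.920). The groups overlapped for both genes.

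Its partner chain Col1a2 held 2763 and 2788 CPM in Dnmt1 CKO and 2016 and 2374 CPM in WT, without overlap and without a call (log2 fold change 0.33, SE 0.22, adjusted p = 0.369). The ratio of Col1a1 to Col1a2 UMIs was 0.861 and 0.776 in Dnmt1 CKO mesenchymal-like cells and 1.02 and 1.09 in WT ones. Within matrix fibroblast-like cells that ratio overlapped, at 1.18 and 1.04 in Dnmt1 CKO and 1.13 and 1.14 in WT. In myofibroblast-like cells it was 0.463 and 0.372 in Dnmt1 CKO and 0.461 and 0.618 in WT.

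The fibril-nucleating type V chains overlapped as well. Col5a1 held 227 and 221 CPM in Dnmt1 CKO and 182 and 246 CPM in WT, and Col5a2 held 348 and 365 CPM in Dnmt1 CKO and 332 and 457 CPM in WT. Among the less abundant fibrillar chains, Col11a1 held 16.7 and 13.8 CPM in Dnmt1 CKO and 9.86 and 8.67 CPM in WT (adjusted p = 0.0746). Col24a1 held 1.51 and 2.82 CPM in Dnmt1 CKO and 3.79 and 6.54 CPM in WT (adjusted p = 0.0679). Neither of these passed the test, although the libraries of the genotypes did not overlap.

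The fibrillar total was 8446 and 8364 CPM in Dnmt1 CKO and 6955 and 8758 CPM in WT. Its share of collagen UMIs was 67.6% and 65.5% in Dnmt1 CKO and 51.3% and 53.5% in WT. The share was higher in both Dnmt1 CKO libraries while the level overlapped, and the sums of the other classes were smaller there.

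**Figure D2:**
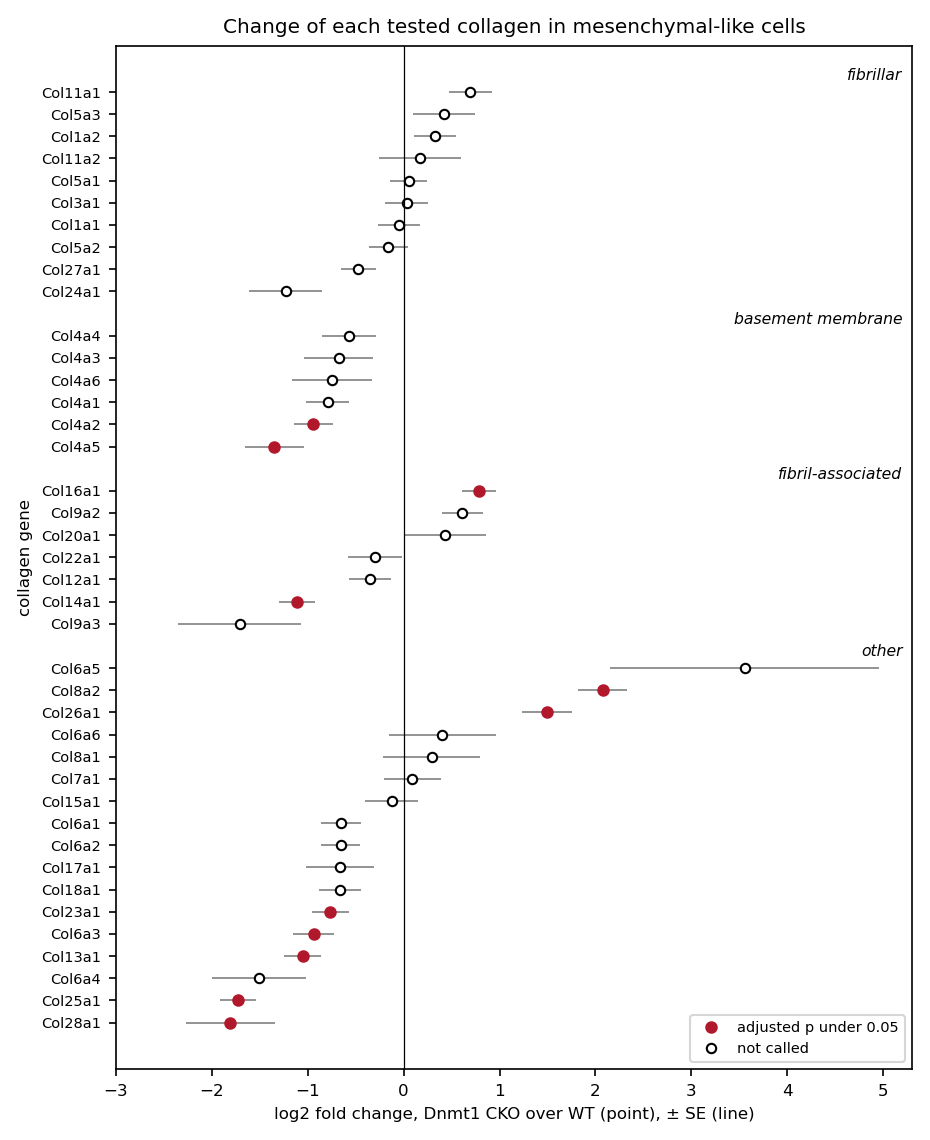
Log2 fold change (Dnmt1 CKO over WT) with its SE for each of the 40 tested collagens in mesenchymal-like cells, grouped by collagen class, with called genes filled. Fibrillar chains lie on both sides of 0 with none called, whereas all 6 basement membrane chains lie below 0.

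All 6 basement membrane chains had fitted log2 fold changes below 0 in mesenchymal-like cells, with a median of -0.77. Of them 2 were called, where 13.2% of all genes were. Col4a2 held 306 and 344 CPM in Dnmt1 CKO and 561 and 678 CPM in WT (log2 fold change -0.94, SE 0.20, adjusted p = 0.0164). Col4a1, which joins it in the common α1α1α2 network, held 833 and 970 CPM in Dnmt1 CKO and 1321 and 1781 CPM in WT (log2 fold change -0.79, SE 0.23, adjusted p = 0.0505). The libraries of the genotypes did not overlap for either gene, and Col4a1 missed the threshold by a small margin.

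Col4a5, a chain of the minor type IV networks that lies on the X chromosome, held 18.6 and 24.2 CPM in Dnmt1 CKO and 34.9 and 74.6 CPM in WT (log2 fold change -1.35, SE 0.31, adjusted p = 0.0215). WT replicate 2 was far higher than the other libraries, and without it the log2 fold change was -0.77 with an adjusted p of 0.103. Col4a2 was no longer called when Dnmt1 CKO replicate 1 (adjusted p = 0.166), Dnmt1 CKO replicate 2 (adjusted p = 0.0503) or WT replicate 2 (adjusted p = 0.0516) was left out. The remaining chains, Col4a3, Col4a4 and Col4a6, stood between 1.10 and 3.30 CPM in Dnmt1 CKO and between 1.87 and 5.00 CPM in WT, with no call. The basement membrane sum was 1165 and 1344 CPM in Dnmt1 CKO and 1928 and 2543 CPM in WT. The pericyte markers of the class were also lower in Dnmt1 CKO, as given above, and pericyte-like cells, the subtype richest in type IV chains, numbered 100 and 126 in Dnmt1 CKO and 206 and 173 in WT. The part of these cells in the type IV difference was not tested.

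Col4a1 and Col4a2 lie head to head on chromosome 8 of GRCm38.p6 (11198423 to 11312826, minus strand, and 11312805 to 11449287, plus strand), and their annotated genes overlap by 22 bases. Their promoter windows, 250 bases before to 50 after each start, share 78 bases. The window of Col4a2 is printed for that shared control region, and those of Col25a1 and Col8a2 because these genes had the smallest adjusted p of the collagens lower and higher in Dnmt1 CKO. All are from RefSeq on GRCm38.p6, 5′ to 3′ on the gene's strand, with CpG dinucleotides, the sites Dnmt1 acts on, in capitals: Col4a2 at chr8:11312555-11312854 (plus), Col25a1 at chr3:130180595-130180894 (plus) and Col8a2 at chr4:126286544-126286843 (plus).
Col4a2: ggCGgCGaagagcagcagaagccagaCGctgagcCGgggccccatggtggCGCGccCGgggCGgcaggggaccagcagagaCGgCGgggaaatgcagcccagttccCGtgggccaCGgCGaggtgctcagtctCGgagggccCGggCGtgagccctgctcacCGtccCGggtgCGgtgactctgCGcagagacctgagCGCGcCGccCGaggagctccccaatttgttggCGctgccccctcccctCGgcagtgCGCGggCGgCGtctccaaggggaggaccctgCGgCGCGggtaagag
Col25a1: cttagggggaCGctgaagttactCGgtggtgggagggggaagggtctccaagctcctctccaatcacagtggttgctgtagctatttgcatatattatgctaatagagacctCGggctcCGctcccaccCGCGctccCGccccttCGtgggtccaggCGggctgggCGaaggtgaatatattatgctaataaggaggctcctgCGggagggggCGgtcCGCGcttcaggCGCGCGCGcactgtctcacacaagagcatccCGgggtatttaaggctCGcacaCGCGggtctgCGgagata
Col8a2: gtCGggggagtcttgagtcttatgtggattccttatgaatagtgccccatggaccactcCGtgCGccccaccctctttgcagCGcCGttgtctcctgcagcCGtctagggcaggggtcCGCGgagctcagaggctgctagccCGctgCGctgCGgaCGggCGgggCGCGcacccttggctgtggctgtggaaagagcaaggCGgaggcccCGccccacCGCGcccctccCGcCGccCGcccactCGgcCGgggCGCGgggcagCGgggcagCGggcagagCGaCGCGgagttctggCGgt
The windows hold 33, 23 and 32 CpGs, where the median of all 32851 promoter windows was 7 and the median of the 35 collagens with a window was 12. The GC box (GGGCGG or CCGCCC, either strand) was found in 62.86% of the collagen windows and in 35.66% of all windows, and the CCAAT box (CCAAT or ATTGG, either strand) in 34.29% and 37.41%. The Col4a2 window holds 3 GC boxes and 1 CCAAT box, that of Col25a1 holds 2 and 1, and that of Col8a2 holds 3 and 0. CpG-dense windows thus belonged to genes lower and to genes higher in Dnmt1 CKO. Col3a1, which was not called, and Col28a1, which was, hold no CpG in theirs. DNA methylation was not measured here, and a match of letters is only a description of the window.

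Of the fibril-associated collagens 7 of 9 were tested and 2 called, in opposite directions, where 13.2% of all genes were called. Col14a1, which binds the surface of fibrils and limits their growth, held 174 and 167 CPM in Dnmt1 CKO and 331 and 400 CPM in WT (log2 fold change -1.12, SE 0.19, adjusted p = 0.00593). Col16a1, a chain found at cell-matrix contacts, held 116 and 103 CPM in Dnmt1 CKO and 62.1 and 63.1 CPM in WT (log2 fold change 0.79, SE 0.18, adjusted p = 0.0203). Neither gene overlapped between the genotypes. Leaving out Dnmt1 CKO replicate 1 (adjusted p = 0.173) or WT replicate 2 (adjusted p = 0.0649) ended the call of Col16a1. Col12a1, the other abundant member, held 44.9 and 60.4 CPM in Dnmt1 CKO and 55.5 and 78.0 CPM in WT, which overlapped (adjusted p = 0.345).

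The 18 other collagens gave 7 of the 11 calls, from 17 tested, where 13.2% of all genes were called. Among the transmembrane collagens 3 of 4 fell and the fourth, Col17a1 of the hemidesmosome, was low and not called. Col25a1, a transmembrane collagen needed in the mouse embryo for motor axons to enter muscle, held 52.1 and 47.8 CPM in Dnmt1 CKO and 143 and 186 CPM in WT (log2 fold change -1.73, SE 0.19, adjusted p = 0.000627). Col13a1, found at cell-matrix adhesions and at the neuromuscular junction, held 199 and 224 CPM in Dnmt1 CKO and 439 and 428 CPM in WT (log2 fold change -1.05, SE 0.19, adjusted p = 0.00887). Both had well separated libraries.

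Col23a1 held 37.7 and 38.2 CPM in Dnmt1 CKO and 54.2 and 74.2 CPM in WT (log2 fold change -0.77, SE 0.19, adjusted p = 0.0322). Its call was lost without WT replicate 2, without Dnmt1 CKO replicate 1 and without Dnmt1 CKO replicate 2, where the adjusted p reached 0.173. That of Col13a1 was lost without Dnmt1 CKO replicate 1 (adjusted p = 0.0862). The transmembrane sum was 293 and 317 CPM in Dnmt1 CKO and 642 and 700 CPM in WT.

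Type VI collagen gave 1 call of 6 chains, where 13.2% of all genes were called. Col6a3, the long chain of the microfibril, held 484 and 598 CPM in Dnmt1 CKO and 1019 and 1033 CPM in WT (log2 fold change -0.94, SE 0.21, adjusted p = 0.0219), a call lost without Dnmt1 CKO replicate 1 (adjusted p = 0.242). Col6a1 held 883 and 926 CPM in Dnmt1 CKO and 1289 and 1528 CPM in WT (log2 fold change -0.65, SE 0.21, adjusted p = 0.0724). Col6a2 held 738 and 679 CPM in Dnmt1 CKO and 1090 and 1120 CPM in WT (log2 fold change -0.66, SE 0.20, adjusted p = 0.0646). The libraries of the genotypes were apart for all 3 chains, and those of Col6a1 and Col6a2 did not pass the test. Col6a5 stood at 0.151 CPM in Dnmt1 CKO replicate 1 and 43.7 CPM in replicate 2, and at 1.05 and 2.43 CPM in WT. Its 742 UMIs in a single Dnmt1 CKO library set its fit, a log2 fold change of 3.56 with an adjusted p of 0.134.

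The remaining families gave 2 rises and 1 fall, where 7.2% of all genes were higher and 5.98% lower. Col8a2, a short-chain collagen of the hexagonal network under the corneal endothelium, held 219 and 183 UMIs in Dnmt1 CKO and 39 and 54 UMIs in WT, or 10.99 and 10.77 CPM against 2.27 and 2.67 CPM (log2 fold change 2.07, SE 0.25, adjusted p = 0.0012). Col26a1, first described in testis and ovary, held 20.1 and 13.3 CPM in Dnmt1 CKO and 5.31 and 6.29 CPM in WT (log2 fold change 1.49, SE 0.26, adjusted p = 0.00664). Both were minor transcripts beside the type I chains, with no overlap between the genotypes.

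Col28a1, known from basement membranes around peripheral nerve glia, held 14 and 11 UMIs in Dnmt1 CKO and 26 and 75 UMIs in WT, or 0.703 and 0.647 CPM against 1.52 and 3.71 CPM (log2 fold change -1.81, SE 0.46, adjusted p = 0.0338). Without WT replicate 2 its adjusted p was 0.275. The multiplexins Col15a1 and Col18a1, whose C-terminal pieces are the angiogenesis inhibitors restin and endostatin, were not called. Col18a1 held 53.5 and 76.2 CPM in Dnmt1 CKO and 104 and 99.6 CPM in WT (adjusted p = 0.0768).

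**Figure D3:**
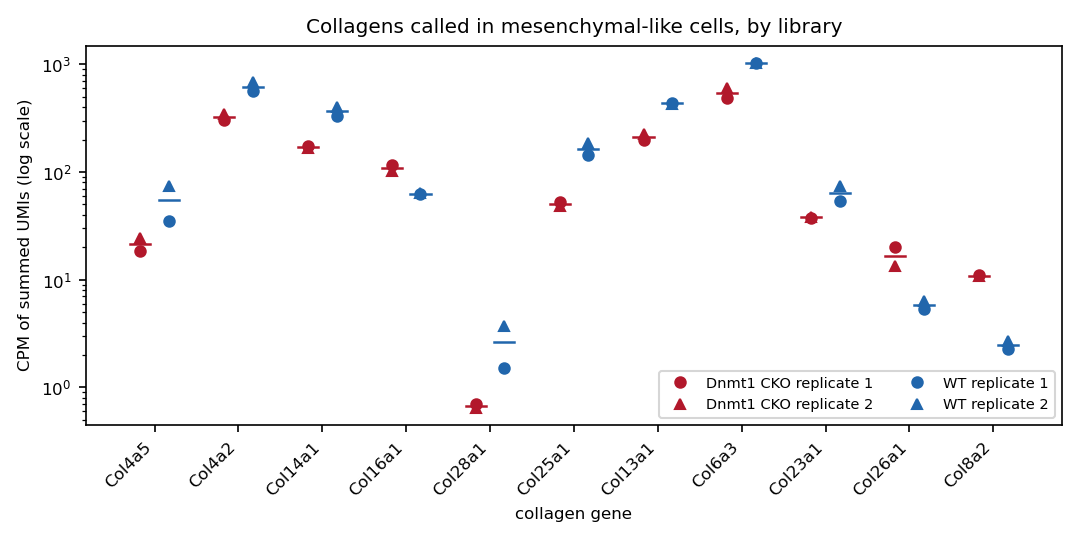
Level (CPM, log axis) of each of the 11 collagens called in mesenchymal-like cells, 1 point per library with the group mean as a bar, Dnmt1 CKO left of WT. Col8a2, Col26a1 and Col16a1 lie higher in both Dnmt1 CKO libraries and the other 8 lie lower, and WT replicate 2 stands well above WT replicate 1 for Col4a5 and Col28a1.

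The share of cells with a UMI followed the sums. With each cell thinned to 3000 UMIs, Col25a1 was found in 13.6% and 12.0% of 2420 and 2487 Dnmt1 CKO mesenchymal-like cells and in 30.3% and 33.6% of 2605 and 2404 WT ones. Without thinning it was found in 24.9% and 19.6% of Dnmt1 CKO cells and in 43.6% and 52.1% of WT cells. Col8a2 was found in 3.06% and 2.98% of thinned Dnmt1 CKO cells and in 0.50% and 0.87% of thinned WT cells, against 7.02% and 6.03% and 1.36% and 2.03% without thinning.

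Immune-like cells, which should lack these transcripts, were taken as the background. At 3000 UMIs Col25a1 was found in 0.00% and 0.51% of Dnmt1 CKO immune-like cells and in 0.80% and 0.61% of WT ones, and Col8a2 in none of the 793 and 788 Dnmt1 CKO and 497 and 495 WT cells. Their median depth before thinning was 8977 and 7056 UMIs in Dnmt1 CKO and 5648 and 8441 UMIs in WT, and that of mesenchymal-like cells was 7243 and 5814 UMIs in Dnmt1 CKO and 5943 and 7647 UMIs in WT. The mesenchymal shares of both genes lay above this immune-like background in the libraries of both genotypes. Erythroid-like cells would give a higher one. By CPM, Col25a1 stood there at 69.0% and 64.6% of its mesenchymal-like level in Dnmt1 CKO and at 54.9% and 45.1% in WT. Shares of cells were not counted for that class.

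Among clusters 1, 5 and 11 the collagen mixture differed. Cluster 5, led by Dcn and Lum, which encode small proteoglycans of the fibril surface, carried the most Col1a1 of the 3. Col1a1 averaged 3623 ± 22 CPM there, 1370 ± 57 CPM in cluster 1 and 1436 ± 86 CPM in cluster 11 (mean ± SD of the 2 Dnmt1 CKO libraries). Matrix fibroblast-like cells averaged 2672 ± 498 CPM of Col1a1 in Dnmt1 CKO and 2197 ± 283 CPM in WT (SD, n = 2 each). Cluster 1, led by Dazl, a germ cell gene, and Saa3, an acute-phase gene, had a Dnmt1 level of 4.79 and 3.84 CPM in the Dnmt1 CKO libraries. That level was 6.01 and 6.36 CPM in cluster 5 and 2.75 and 3.04 CPM in cluster 11.

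The called genes were spread unevenly over these clusters. Col26a1 averaged 34.5 CPM in cluster 5, 10.8 CPM in cluster 1 and 0.805 CPM in cluster 11, against 26.8 CPM in Dnmt1 CKO and 4.66 CPM in WT matrix fibroblast-like cells. Col8a2 averaged 20.9 CPM in cluster 5, 10.7 CPM in cluster 1 and 6.11 CPM in cluster 11, against 4.44 CPM in Dnmt1 CKO and 2.72 CPM in WT matrix fibroblast-like cells. Col13a1 averaged 242 CPM in cluster 1, 225 CPM in cluster 5 and 83.4 CPM in cluster 11, against 424 CPM in Dnmt1 CKO and 587 CPM in WT matrix fibroblast-like cells. Cluster 11, led by Myh11 and Htra1, the first a smooth muscle myosin, had the highest Col15a1 of these groups at 69.7 CPM, against 4.94 CPM in cluster 1 and 4.81 CPM in cluster 5. No test was run on single clusters. WT cells numbered 2 and 2 in cluster 1, 15 and 32 in cluster 11, and 24 and 24 in cluster 5.

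The mesenchymal subtypes that both genotypes shared differed widely in collagen content. Adventitial fibroblast-like cells, which sheathe airways and vessels, were the richest, with a collagen sum of 28371 and 24868 CPM in Dnmt1 CKO and 27848 and 32837 CPM in WT. Fibrillar chains made 80.9% and 75.4% of it in Dnmt1 CKO and 75.9% and 74.4% in WT. Matrix fibroblast-like cells summed to 13352 and 12155 CPM in Dnmt1 CKO and 13152 and 15541 CPM in WT, with fibrillar shares of 63.1% and 59.9% in Dnmt1 CKO and 48.1% and 50.9% in WT. The sums of both subtypes overlapped between the genotypes, and so did the fibrillar share of the adventitial cells, whereas that of the matrix cells did not. Inside the matrix cells Col1a1 held 2118 and 1854 CPM in Dnmt1 CKO and 1674 and 1885 CPM in WT in cluster 0, and 3574 and 3368 CPM in Dnmt1 CKO and 3940 and 4230 CPM in WT in cluster 10. Col1a1 was therefore higher in cluster 10, which made up more of the matrix cells in Dnmt1 CKO than in WT.

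Pericyte-like cells, which wrap capillaries, were the basement membrane subtype. Type IV chains made 51.7% and 57.6% of their collagen UMIs in Dnmt1 CKO and 66.3% and 63.9% in WT, and Col4a1 held 2682 and 3432 CPM in Dnmt1 CKO and 4157 and 5236 CPM in WT. The pericyte markers of these cells summed to 5370 and 8562 CPM in Dnmt1 CKO and 13610 and 12448 CPM in WT. At a finer clustering 63 and 39 Dnmt1 CKO cells formed an unnamed cluster with no WT cell, where Col4a1 held 2416 and 2312 CPM and the pericyte gene Higd1b 244 and 390 CPM. The cluster still named pericyte-like held 3079 and 3928 CPM of Col4a1 in Dnmt1 CKO and 4157 and 5236 CPM in WT, which did not overlap. Smooth muscle-like cells carried the least collagen, at 6980 and 7409 CPM in Dnmt1 CKO and 5710 and 5918 CPM in WT. Col13a1 was highest in matrix fibroblast-like cells among the 6 named subtypes, with an average of 424 CPM in Dnmt1 CKO and 587 CPM in WT. It averaged 179 CPM in Dnmt1 CKO and 216 CPM in WT dividing cells, 129 CPM in Dnmt1 CKO and 190 CPM in WT adventitial fibroblast-like cells, and between 8.67 and 18.0 CPM in smooth muscle-like and pericyte-like cells of either genotype. Col15a1 was highest in myofibroblast-like cells, at 168 and 195 CPM in Dnmt1 CKO and 189 and 133 CPM in WT, and averaged at most 33.4 CPM in Dnmt1 CKO and 10.1 CPM in WT in the other 5.

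**Figure D4:**
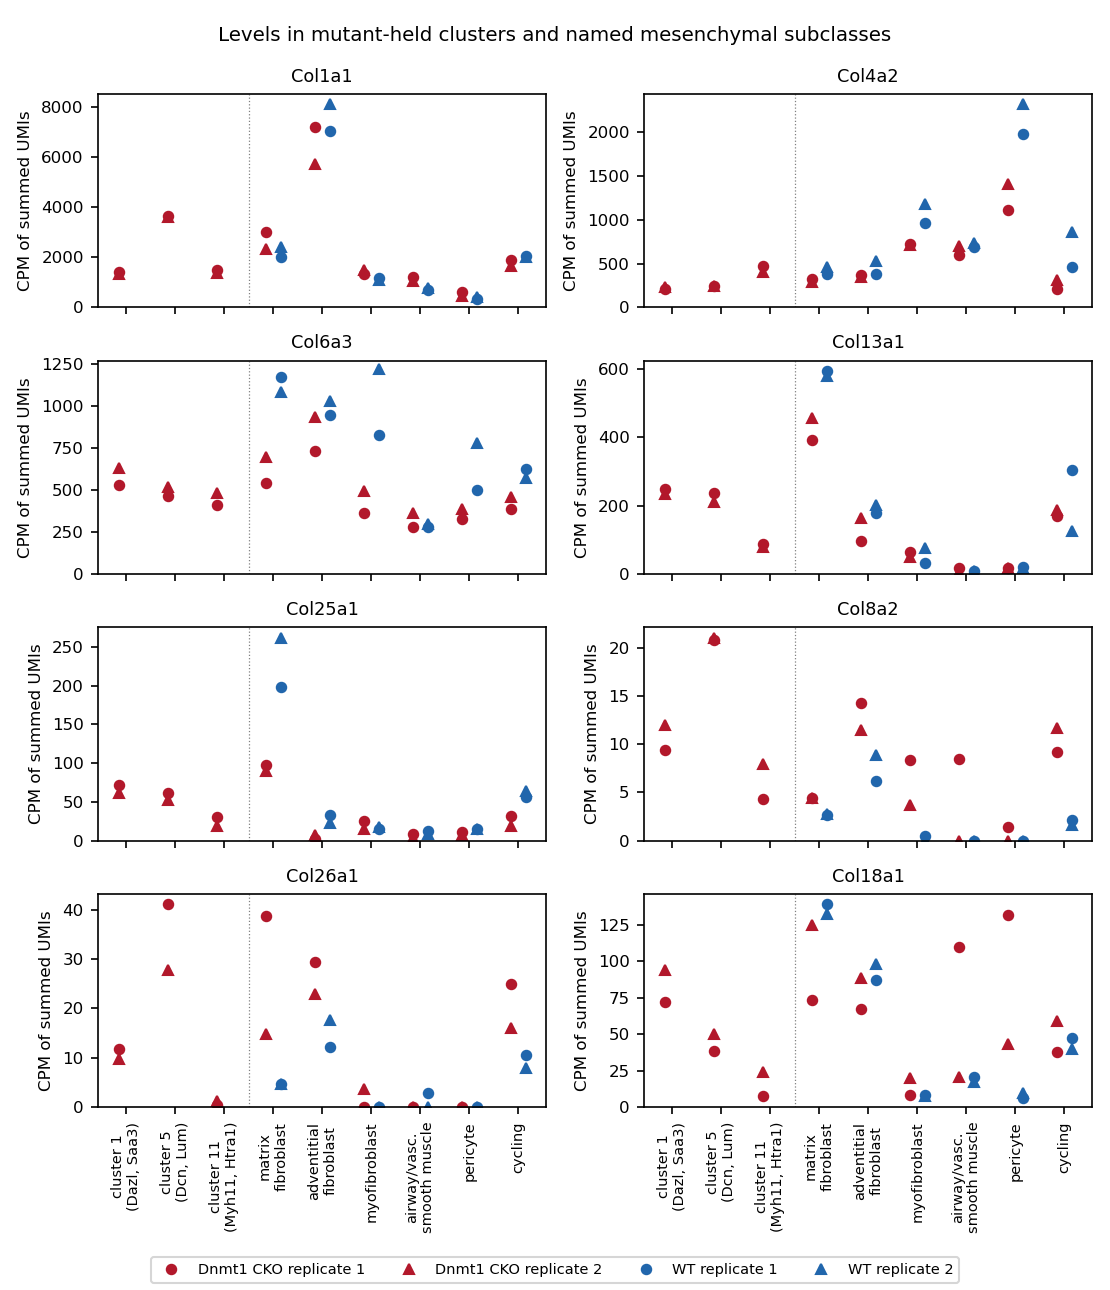
Level (CPM, linear axis) of 8 collagens in clusters 1, 5 and 11, shown for Dnmt1 CKO, and, right of the dotted line, in the 6 named mesenchymal subtypes, 1 point per library, Dnmt1 CKO left of WT. Col1a1 is highest in adventitial fibroblast-like cells, Col4a2 in pericyte-like cells, Col13a1 and WT Col25a1 in matrix fibroblast-like cells, and Col8a2 in cluster 5.

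Within these subtypes 7 differences were called. In matrix fibroblast-like cells 2 of 29 tested collagens were called, where 0.638% of all genes were. Col25a1 held 97.5 and 89.6 CPM in Dnmt1 CKO and 198 and 262 CPM in WT (log2 fold change -1.29, SE 0.23, adjusted p = 0.0141). Col26a1 held 35 and 40 UMIs, or 38.8 and 14.8 CPM, in Dnmt1 CKO and 55 and 63 UMIs, or 4.72 and 4.61 CPM, in WT (log2 fold change 2.32, SE 0.38, adjusted p = 0.00677). Neither overlapped. In cluster 0 alone Col25a1 held 79.1 and 103 CPM in Dnmt1 CKO and 201 and 274 CPM in WT, and in cluster 10 it held 109 and 59.0 CPM in Dnmt1 CKO and 181 and 223 CPM in WT. Col26a1 held 17.6 and 7.49 CPM in Dnmt1 CKO and 2.32 and 1.79 CPM in WT in cluster 0, and 51.7 and 31.3 CPM in Dnmt1 CKO and 19.2 and 14.7 CPM in WT in cluster 10. The groups of both genes did not overlap within either cluster, where the share of all genes that do not overlap was not counted. Over the whole mesenchymal-like class that share was 57.4%. Col26a1 was higher in cluster 10, which made up more of the subtype in Dnmt1 CKO than in WT. In Dnmt1 CKO cluster 0 held 53 and 329 cells and cluster 10 held 76 and 131, so these levels are a description. Without Dnmt1 CKO replicate 2 the adjusted p of Col25a1 was 0.0587, and with equal cell numbers Col26a1 had too few UMIs to be tested. The Dnmt1 level of matrix fibroblast-like cells was 29.9 and 21.5 CPM in Dnmt1 CKO and 21.3 and 21.5 CPM in WT, without a call (log2 fold change 0.22, adjusted p = 0.927, edgeR).

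In adventitial fibroblast-like cells 2 of 29 were called, where 1.13% of all genes were. Dnmt1 itself was not called there (log2 fold change -0.93, adjusted p = 0.416, edgeR). It held 7.93 and 11.5 CPM in Dnmt1 CKO and 14.7 and 23.9 CPM in WT. Col15a1 held 32 and 54 UMIs, or 25.4 and 41.4 CPM, in Dnmt1 CKO and 3 and 5 UMIs, or 3.68 and 3.41 CPM, in WT (log2 fold change 2.77, SE 0.41, adjusted p = 0.00181). Col25a1 held 2 and 10 UMIs, or 1.59 and 7.66 CPM, in Dnmt1 CKO and 27 and 34 UMIs, or 33.1 and 23.2 CPM, in WT (log2 fold change -2.21, SE 0.46, adjusted p = 0.0272). Col15a1 was thus nearly absent from the WT cells of this subtype, and the Col25a1 result rests on few UMIs. Without Dnmt1 CKO replicate 1 the Col25a1 call was lost (adjusted p = 0.0556), and over all alternatives tried its adjusted p reached 0.119.

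In pericyte-like cells 1 of 19 was called, where 3.58% of all genes were. Col18a1 held 92 and 28 UMIs, or 132 and 43.0 CPM, in Dnmt1 CKO and 7 and 12 UMIs, or 6.15 and 9.58 CPM, in WT (log2 fold change 3.23, SE 0.40, adjusted p = 2.5e-08). It was higher in both Dnmt1 CKO libraries. The unnamed cluster of 63 and 39 Dnmt1 CKO cells was led by Ebf1, Abcc9 and Kcnj8, which the pericyte list does not hold. Pdgfrb and Cox4i2, which that list holds, came next. Higd1b, also listed, stood at 244 and 390 CPM there, against 2299 and 2475 CPM in the Dnmt1 CKO cells still named pericyte-like. The unnamed cluster held 84 and 26 Col18a1 UMIs, 2 and 0 UMIs of Dnmt1 and 0 and 2 UMIs of the endothelial gene Pecam1. The cluster still named pericyte-like held 9 and 2 Col18a1 UMIs in Dnmt1 CKO, or 33.4 and 4.47 CPM, against 6.15 and 9.58 CPM in WT. Col18a1 lost its call without WT replicate 2 (adjusted p = 0.141) and when cells marked as doublets were kept (log2 fold change 0.06, adjusted p = 0.989). It was too low to be tested with stricter cell filters, a finer clustering, collagens kept in the clustering or called genes left out of it, where the pericyte-like class held 33 to 38 and 70 to 88 Dnmt1 CKO cells. The call thus depended on which clusters were counted as pericyte-like.

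In dividing mesenchymal-like cells 2 of 24 were called, where 2.33% of all genes were. Dnmt1 held 25.4 and 37.1 CPM in these Dnmt1 CKO cells and 115 and 124 CPM in the WT ones (log2 fold change -1.89, adjusted p = 0.00365, edgeR). Col27a1 held 17.3 and 19.8 CPM in Dnmt1 CKO and 54.0 and 42.9 CPM in WT (log2 fold change -1.32, SE 0.28, adjusted p = 0.0415). Col4a5 held 11.5 and 14.8 CPM in Dnmt1 CKO and 36.0 and 36.5 CPM in WT (log2 fold change -1.36, SE 0.30, adjusted p = 0.0497). Both lay close to the threshold. Col4a2 held 207 and 311 CPM in these Dnmt1 CKO cells and 459 and 858 CPM in the WT ones (log2 fold change -1.30, adjusted p = 0.0615). Pericyte markers in the same cells summed to 567 and 1137 CPM in Dnmt1 CKO and 1419 and 4418 CPM in WT, in the order of Col4a2 over the 4 libraries, and their part was not tested. Col27a1 lost its call without WT replicate 1 (adjusted p = 0.0965) or Dnmt1 CKO replicate 1 (adjusted p = 0.0935), and Col4a5 likewise (adjusted p = 0.0613 and 0.175). Over all 16 alternatives Col27a1 was called in 10 and Col4a5 in 6, and neither was called by DESeq2, with stricter cell filters, with equal cell numbers or after clustering again without called genes (adjusted p of up to 0.197).

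In myofibroblast-like cells edgeR called 0 of 25, where 0.234% of all genes were called, with 6 at an unadjusted p under 0.05, where 7.16% of all genes were, and 1 call, Col6a3, by DESeq2. Col6a3 held 362 and 495 CPM in Dnmt1 CKO and 827 and 1221 CPM in WT (log2 fold change -1.24, adjusted p = 0.0852 by edgeR). In smooth muscle-like cells edgeR called 0 of 15, where 0.149% of all genes were called, with 6 at an unadjusted p under 0.05, where 7.18% of all genes were, and 0 calls by DESeq2. Col1a1 held 1201 and 1070 CPM in these Dnmt1 CKO cells and 693 and 795 CPM in the WT ones (log2 fold change 0.63, adjusted p = 0.659). Dnmt1 was not called in myofibroblast-like cells (log2 fold change -0.66, adjusted p = 0.858, edgeR) or smooth muscle-like cells (log2 fold change 0.15, adjusted p = 0.983).

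The size of the change differed between the 6 subtypes for 10 of 36 collagens, where it did for 2.7% of all genes (edgeR, test of the genotype effect by subtype). They were Col18a1, Col1a1, Col6a3, Col15a1, Col11a1, Col6a5, Col4a1, Col27a1, Col4a2 and Col6a2. The count was 1 without WT replicate 2 and 4 without Dnmt1 CKO replicate 1. For Col1a1 the libraries of the genotypes overlapped in adventitial fibroblast-like cells, at 7217 and 5727 CPM in Dnmt1 CKO and 7055 and 8127 CPM in WT, and did not in smooth muscle-like cells.

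In the epithelium edgeR called 0 of 32 tested collagens, and 0% of all genes. At an unadjusted p under 0.05 there were 6 collagens, where 2.9% of all genes were, and DESeq2 called 0. The subtypes named below leave out cluster 8, an epithelial-like cluster without a subtype name. It held 5312522 of 8950269 and 10433257 of 20088154 epithelial-like UMIs in Dnmt1 CKO, and 8110921 of 14120526 and 7850437 of 16974614 in WT. The levels of the named subtypes therefore do not stand for the whole class. The epithelium carries chains of the α3α4α5 network of type IV collagen beside those of the common network. In alveolar type 1-like cells Col4a4 held 470 and 651 CPM in Dnmt1 CKO and 728 and 1010 CPM in WT, and Col4a3 held 156 and 233 CPM in Dnmt1 CKO and 276 and 546 CPM in WT. In alveolar type 2-like cells Col4a4 stood between 18.6 and 36.9 CPM in Dnmt1 CKO and between 15.6 and 16.2 CPM in WT. Col4a5 held 144 and 152 CPM in Dnmt1 CKO and 190 and 254 CPM in WT alveolar type 1-like cells, and 53.1 and 34.4 CPM in Dnmt1 CKO and 33.3 and 37.7 CPM in WT type 2-like cells. Col4a4 and Col4a5 were thus higher in type 1-like than in type 2-like cells in every library, and Col4a4 was higher still in WT mesothelial-like cells.

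Over all epithelial-like cells Col4a3 held 74.9 and 89.7 CPM in Dnmt1 CKO and 115 and 221 CPM in WT (log2 fold change -1.03, SE 0.28, adjusted p = 0.9998). Col4a2 held 253 and 324 CPM in Dnmt1 CKO and 391 and 488 CPM in WT (log2 fold change -0.63, SE 0.22, adjusted p = 0.9998). The libraries of the genotypes did not overlap for these genes, and neither difference passed the adjustment. Col25a1 and Col13a1 were also among the 6, at levels of at most 2.79 CPM in Dnmt1 CKO and 6.09 CPM in WT.

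Alveolar type 2-like cells carried 2 type VI chains with little of the third. Col6a1 held 404 and 532 CPM in Dnmt1 CKO and 637 and 731 CPM in WT there, and Col6a2 held 263 and 328 CPM in Dnmt1 CKO and 399 and 332 CPM in WT. Col6a3 held 19.5 and 19.98 CPM in Dnmt1 CKO and 18.0 and 6.81 CPM in WT. The ratio of Col6a3 to Col6a1 UMIs over epithelial-like cells was 0.057 and 0.095 in Dnmt1 CKO and 0.052 and 0.074 in WT, where mesenchymal-like cells had 0.548 and 0.647 in Dnmt1 CKO and 0.791 and 0.676 in WT. Secretory-like cells held 178 and 137 CPM of Col23a1 in Dnmt1 CKO and 160 and 164 CPM in WT, which is above the mesenchymal level in each library.

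In the endothelium edgeR called 0 of 23 tested collagens, where 0.079% of all genes were called, with 4 at an unadjusted p under 0.05, where 4.17% of all genes were, and 1 call, Col14a1, by DESeq2. Endothelial-like cells held the highest type IV level of the broad cell types. Col4a1 held 2441 and 2749 CPM in Dnmt1 CKO and 2183 and 3182 CPM in WT (log2 fold change -0.01, adjusted p = 0.999), and Col4a2 held 1301 and 1347 CPM in Dnmt1 CKO and 1191 and 1572 CPM in WT. The Dnmt1 CKO values of both genes lay inside the range of the WT libraries.

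Col14a1 held 25.4 and 34.6 CPM in Dnmt1 CKO and 79.0 and 96.3 CPM in WT endothelial-like cells (log2 fold change -1.49, SE 0.25, adjusted p = 0.0738 by edgeR). Col15a1 held 136 and 117 CPM in Dnmt1 CKO and 87.7 and 75.7 CPM in WT (log2 fold change 0.65, SE 0.23, adjusted p = 0.942). The libraries were apart for both genes without an edgeR call. Col5a2, a fibrillar chain, reached 491 and 1818 CPM in Dnmt1 CKO and 437 and 634 CPM in WT arterial-like cells, where Col5a1, its usual partner, stood at 14.2 and 49.7 CPM in Dnmt1 CKO and 9.58 and 22.8 CPM in WT. Lymphatic endothelial-like cells, 14 and 16 in Dnmt1 CKO and 7 and 9 in WT, were rich in Col18a1, at 713 and 605 CPM in Dnmt1 CKO and 536 and 769 CPM in WT.

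The change of type IV collagen differed between mesenchyme and endothelium. The difference in log2 fold change, endothelial-like minus mesenchymal-like, was 0.73 for Col4a1 (SE 0.13, adjusted p = 0.0175) and 0.86 for Col4a2 (SE 0.14, adjusted p = 0.00913), and 1.69 for Col25a1 (SE 0.26, adjusted p = 0.0080). These were 3 of 41 collagens tested, where the change of 2.38% of all genes differed (edgeR, cell type by genotype term with the library as a block). Col25a1 was low in endothelial-like cells, at 11.6 and 8.80 CPM in Dnmt1 CKO and 9.48 and 10.6 CPM in WT. Barcodes rich in haemoglobin and with few genes held 3.86 and 0 CPM of it in Dnmt1 CKO and 9.39 and 12.5 CPM in WT. Those values leave haemoglobin out of the total and rest on at most 2 UMIs a library. Without WT replicate 1 or WT replicate 2 all 3 calls were lost, with adjusted p values of up to 0.275 for Col4a1, 0.190 for Col4a2 and 0.12 for Col25a1, while the size of the Col4a1 difference stayed between 0.66 and 0.81 over all alternatives.

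Between epithelium and mesenchyme 3 of 41 collagens differed in their change, where 5.48% of all genes did. The epithelial-like minus mesenchymal-like difference was 1.18 for Col23a1 (SE 0.27, adjusted p = 0.0299), 0.98 for Col4a5 (SE 0.25, adjusted p = 0.0419) and -4.08 for Col6a5 (SE 0.42, adjusted p = 0.00077). The Col6a5 value rests on Dnmt1 CKO replicate 2, and without that library it was -1.14 (adjusted p = 0.496). Col23a1 lost its call without WT replicate 1 or 2 (adjusted p of up to 0.200), and Col4a5 without WT replicate 2 or Dnmt1 CKO replicate 1 (adjusted p of up to 0.394).

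**Figure D5:**
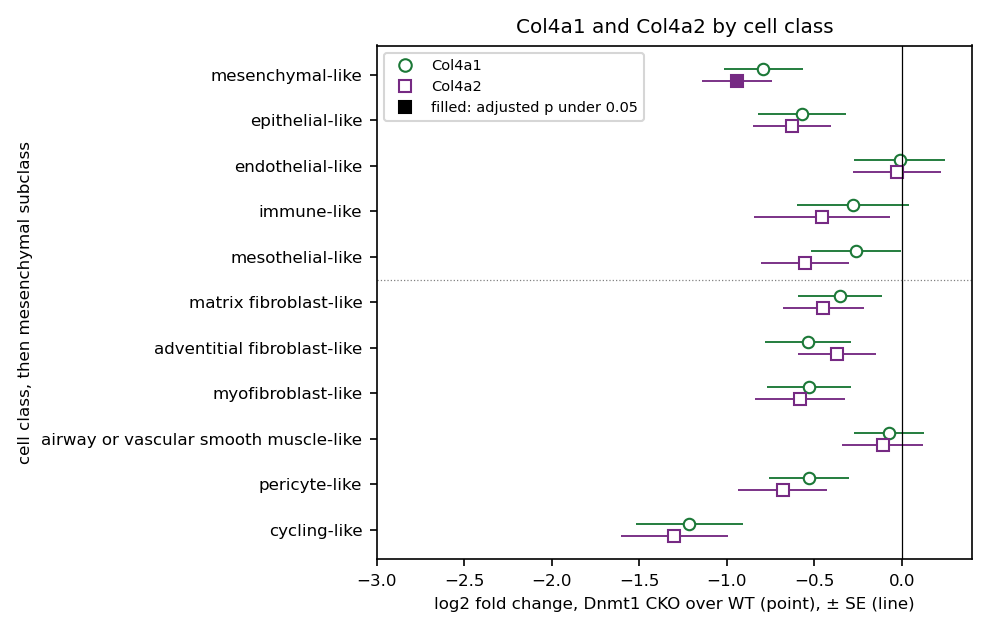
Log2 fold change (Dnmt1 CKO over WT) with its SE for Col4a1 (circles) and Col4a2 (squares) in the broad cell classes and, under the dotted line, the mesenchymal subtypes, with the called value filled. The points lie at -0.79 and -0.94 in mesenchymal-like cells, at -0.01 and -0.03 in endothelial-like cells, and furthest below 0 in cycling cells, where Col4a2 stands at -1.30 without a call and pericyte markers were lower in Dnmt1 CKO as well (567 and 1137 CPM, against 1419 and 4418 CPM in WT).

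In mesothelial-like cells Dnmt1 was lower in both Dnmt1 CKO libraries without a call (adjusted p = 0.0664, edgeR). There edgeR called 0 of 23 tested collagens, where 0.711% of all genes were called. At an unadjusted p under 0.05 there were 10, all with values below 0, where 10.6% of all genes were, and DESeq2 called 2, Col3a1 and Col1a2. Col3a1 held 3863 and 2821 CPM in Dnmt1 CKO and 6330 and 7313 CPM in WT (log2 fold change -1.07, adjusted p = 0.148 by edgeR). Col1a2 held 1391 and 1379 CPM in Dnmt1 CKO and 2571 and 2963 CPM in WT (log2 fold change -1.04, adjusted p = 0.118 by edgeR). The libraries were apart for both, in a class of 39 and 65 Dnmt1 CKO cells and 36 and 28 WT cells. The median log2 fold change was -0.65 over the 23 collagens and 0.00 over all genes. Other marker lists moved in these cells too. Mesothelial markers summed to 7894 and 7980 CPM in Dnmt1 CKO and 9424 and 12183 CPM in WT, mesenchymal markers to 2048 and 2454 CPM in Dnmt1 CKO and 3953 and 3750 CPM in WT, and erythroid markers to 13155 and 2812 CPM in Dnmt1 CKO and 324 and 198 CPM in WT. None of these lists overlapped, and their part in the collagen values was not tested. Col4a4 was high in these cells too, at 1002 and 641 CPM in Dnmt1 CKO and 1240 and 1125 CPM in WT, and Col6a6 had 46.8 and 88.9 CPM in Dnmt1 CKO and 94.6 and 123 CPM in WT.

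In immune-like cells edgeR called 0 of 20, where 0.00816% of all genes were called, with 1 at an unadjusted p under 0.05, where 5.02% of all genes were, and 0 calls by DESeq2. Collagen levels there were a small fraction of the mesenchymal ones: Col1a1 held 39.1 and 47.8 CPM in Dnmt1 CKO and 42.9 and 45.2 CPM in WT, or 1.65% and 2.21% of the mesenchymal-like level in Dnmt1 CKO and 2.09% and 1.75% in WT. Barcodes rich in haemoglobin and with few genes held 237 and 252 CPM of Col1a1 in Dnmt1 CKO and 202 and 193 CPM in WT, with haemoglobin left out of the total. The levels in immune-like cells lay below those of these barcodes.

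The genes that make, trim, link, break down and bind collagen were taken from a list of 76, of which 66 were tested in mesenchymal-like cells, with 3 higher and 11 lower in Dnmt1 CKO and a median log2 fold change of 0.07. Of all genes tested 7.2% were higher and 5.98% lower, with a median of 0.00. Of the 12 chaperone and secretion genes edgeR called 0, with 3 at an unadjusted p under 0.05, where 28.1% of all genes were, and 2 calls by DESeq2. Among 15 genes of hydroxylation and glycosylation, Crtap, a part of the prolyl 3-hydroxylation complex, held 51.0 and 48.6 CPM in Dnmt1 CKO and 77.7 and 75.2 CPM in WT (adjusted p = 0.0457). Colgalt2, a collagen galactosyltransferase, held 0.602 and 2.12 CPM in Dnmt1 CKO and 3.50 and 6.14 CPM in WT (adjusted p = 0.0492). Both fell.

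The 12 genes of cross-linking and fibril assembly held all 3 rises, where 7.2% of all genes were higher. Lum held 107 and 109 CPM in Dnmt1 CKO and 18.1 and 20.3 CPM in WT (log2 fold change 2.47, adjusted p = 4.8e-05), and Dcn held 575 and 528 CPM in Dnmt1 CKO and 156 and 179 CPM in WT (log2 fold change 1.71, adjusted p = 0.000782). Both proteoglycans regulate fibril width, are markers of the adventitial list and lead cluster 5. Thbs2, a thrombospondin whose loss in mice gives irregular fibrils, held 83.1 and 67.3 CPM in Dnmt1 CKO and 24.4 and 35.8 CPM in WT (log2 fold change 1.31, adjusted p = 0.00546). Tgm2, a cross-linking transglutaminase, fell instead, to 32.0 and 42.4 CPM in Dnmt1 CKO, against 138 and 118 CPM in WT (log2 fold change -1.80, adjusted p = 0.00117).

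Of 6 procollagen cleavage genes 2 fell, where 5.98% of all genes were lower. They were Pcolce2, an enhancer of C-propeptide removal that leads cluster 0, and Adamts3, an N-propeptidase. Pcolce2 held 14.4 and 50.3 CPM in Dnmt1 CKO and 139 and 129 CPM in WT (log2 fold change -2.07, adjusted p = 0.0200). Of 13 genes of breakdown and its inhibitors 3 fell, Mrc2, Timp4 and Reck, against the same share of all genes. Mrc2, a receptor that takes up collagen fragments, held 53.6 and 60.1 CPM in Dnmt1 CKO and 101 and 98.8 CPM in WT (log2 fold change -0.83, adjusted p = 0.0178).

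Of 8 receptors 3 fell, Itga1, Itga2 and Adgrg6, where 5.98% of all genes were lower. Counts over lists this short are a description. Itga1, whose integrin favours type IV collagen, held 153 and 157 CPM in Dnmt1 CKO and 279 and 304 CPM in WT (log2 fold change -0.93, adjusted p = 0.0109). Adgrg6, an adhesion receptor that binds type IV collagen, held 67.0 and 78.3 CPM in Dnmt1 CKO and 135 and 168 CPM in WT (log2 fold change -1.07, adjusted p = 0.00741). These 2 receptors and the type IV chain Col4a2 are named because they were called lower, so their shared direction follows from that choice. A link between them was not tested.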

How the data were processed

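Members and gene lists were chosen with earlier results of these data known. The authors deposited raw UMI counts by gene and barcode. Per the submitters' processing notes the build was GRCm38.p6 and the tools were Cell Ranger 3.1.0, bcl2fastq 2.20 and Seurat. The lowest total in a deposited barcode was 500 UMIs. Barcodes with fewer than 500 genes, over 20% mitochondrial UMIs or a Scrublet doublet call (78 and 82 in Dnmt1 CKO, 228 and 172 in WT) were left out. The rest were clustered in scanpy 1.11.5 (2000 variable genes without collagen, sex-linked, haemoglobin and mitochondrial genes; 30 components, Leiden resolution 1.0) and named from 31 marker lists, the naming score being set after the clusters were seen. UMIs were summed per class and library, in classes with at least 20 cells in every library, and compared by edgeR 4.0.16 in R 4.3.3 (quasi-likelihood F-test after filterByExpr and TMM, prior count 2). SE was taken as log2 fold change divided by √F, and a call is an adjusted p under 0.05. The test was first checked on simulated counts. With 2 libraries a group the smallest exact permutation p is 0.333, and no such test was run.

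Values in every library are given by rule for the collagens called, the 3 most abundant of each class in mesenchymal-like cells, and the called pathway genes; further collagens were named after their values were seen. Positions come from GENCODE vM21 on GRCm38.p6 for 41 of the 44 genes. The alternatives were other scaling, filters, clusterings and cell numbers, DESeq2 1.42.0, a replicate block and each library left out.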

Additional observations from a re-analysis of the deposited data

Results flagged for a closer look

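The genotype effect on a collagen differed between cell types, by the edgeR test of the difference itself, in 6 cases. For epithelial-like minus mesenchymal-like cells the difference in log2 fold change was -4.08 for Col6a5, 1.18 for Col23a1 and 0.98 for Col4a5. For endothelial-like minus mesenchymal-like cells it was 1.69 for Col25a1, 0.73 for Col4a1 and 0.86 for Col4a2. The Col6a5 value follows a single library, since 742 of its UMIs in mesenchymal-like cells were in Dnmt1 CKO replicate 2, against 3 in Dnmt1 CKO replicate 1 and 18 and 49 in WT.

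Among the 6 mesenchymal subtypes the effect differed for 10 collagens, again by edgeR's test of the difference. The adjusted p was 0.00213 for Col18a1, 0.00791 for Col1a1, 0.00819 for Col6a3, 0.0119 for Col15a1, 0.0164 for Col11a1, 0.0186 for Col6a5, 0.0199 for Col4a1, 0.0298 for Col27a1, 0.0336 for Col4a2 and 0.0371 for Col6a2. These values say that the subtypes differ and not which of them differ.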

How the results depend on the processing

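Of the fold changes of the named collagens recomputed under the alternatives, 392 kept their side of the threshold, 51 lost a call and 12 gained one. No called value changed sign, whereas the values of Col3a1 and Col1a1, near 0 and not called, lay on either side of 0. In mesenchymal-like cells the 11 calls became 22 without the low-count filter and 18 with the replicate block, with all 11 kept in both, and 15 with DESeq2, also with all 11. They ranged from 9 to 14 when each library was left out, with 6 of the 11 kept without WT replicate 2 or Dnmt1 CKO replicate 1. Col25a1, Col8a2, Col14a1 and Col26a1 were called under all 15 alternatives. Epithelial-like cells had 2 calls without the filter and 3 with the replicate block. Endothelial-like cells had 2 without the filter, 1 with DESeq2, 2 with the replicate block, 1 with doublets kept and 0 to 3 with a library left out. Immune-like cells had 0 to 1 with a library left out. Mesothelial-like cells had 4 without the filter, 2 with DESeq2, 3 with the replicate block and 0 to 3 with a library left out. The 7 subtype calls became 18 without the filter, 15 with the replicate block, 3 with equal cell numbers and 11 to 16 with a library left out. The 6 differences between cell types became 20 without the filter and 1 to 14 with a library left out. The 10 differences between subtypes became 17 without the filter, 6 with stricter cell filters, 5 with collagens kept in the clustering, 2 with equal cell numbers and 1 to 7 with a library left out. The cause of these moves was not tested. The cell type with the highest level was the same for 19 of 19 collagens under stricter cell filters and for 18 at 3000 or 2000 UMIs per cell, where Col8a2 moved to mesenchymal-like cells.

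A library left out leaves 1 library in its group, which is then assumed to vary like the others. The labels do not pair the libraries, and same-numbered libraries deviated together with a correlation between 0.0158 and 0.303, so the replicate block is given only here. DESeq2 and the replicate block were not run for the differences between cell types. With 2 libraries a group and few UMIs per cell, changes of rare chains such as Col10a1 or Col19a1 were not detectable at this depth.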

Other observations

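Erythroid-like cells, 67 and 26 in Dnmt1 CKO and 32 and 30 in WT, carried collagen mRNA well above that of immune-like cells. Col1a1 stood at 1630 and 1526 CPM in Dnmt1 CKO and 1120 and 600.2 CPM in WT erythroid-like cells, or 68.5% and 70.6% of the mesenchymal-like level in Dnmt1 CKO and 54.5% and 23.2% in WT. Col4a2 stood at 62.4% and 77.3% of its mesenchymal-like level in Dnmt1 CKO and 37.1% and 37.0% in WT. The source of these UMIs was not tested.

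Col2a1, the collagen of cartilage, stood at 0.351 and 0 CPM in the mesenchymal-like cells of Dnmt1 CKO and at 9.27 and 0.148 CPM in those of WT. WT replicate 1 was the high library, and the gene was too sparse to be tested.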
